A study of Mus musculus with 3 samples.

Results

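Interleukins are secreted proteins by which blood cells instruct each other, and their receptors are mostly pairs or trios of chains in which a ligand-specific chain joins a shared signalling chain. In bone they act on both sides of osteoclast formation. IL-1 and IL-17 are known to promote it, IL-4, IL-10 and IL-13 to hold it back, and IL-6 and IL-11 act through gp130, with effects reported both on osteoclast precursors and on the stromal cells around them. The transcripts of this gene family were followed by taking every probe set (a group of short probes for a transcript) whose only gene symbol began with Il and a digit. The rule gave 93 probe sets for 66 genes, out of 20380 single-symbol probe sets for 12393 genes in all. By role they were 31 ligands, 29 receptor chains, 5 antagonists or decoys and 1 enzyme, the amino acid oxidase Il4i1. A further 2 probe sets that named an interleukin gene together with another gene were left out.

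Mouse C57/BL6 bone marrow cells had been cultured with human M-CSF at 50 ng/ml for 3 days, which gave macrophages that served as osteoclast precursors. All cultures shared this step, and they were then exposed to human RANKL at 150 ng/ml for 0 h (precursors), 24 h (differentiating precursors) or 72 h (osteoclasts). The age of the mice and whether marrow was pooled are not given in the sources used here. Each time was measured on 1 Affymetrix array, so nothing below could be tested against replicates, and the small number of arrays limits the precision. There was no culture kept without RANKL for 24 or 72 h, so RANKL and time in culture cannot be told apart. In whole-culture RNA, fewer cells of a type and less RNA per cell cannot be told apart either.

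Signals are given on the scale of the 3 arrays after each array was centred on its median, because the deposited medians were 36.7, 60.9 and 62.7. A floor was set at the 40th percentile of the gene probe sets, a signal of 29.6, and signals at or under it were treated as not detected. A gene was represented by its probe set with the highest mean log2 signal, counted as measured when it exceeded the floor on either array of a comparison, and was called higher or lower at a difference of at least 2-fold. A fold against an array at the floor is a lower bound. The technical error was taken from genes with 2 probe sets above the floor. It was a factor of 1.33 at 24 h and 1.41 at 72 h relative to 0 h, and 1.28 between 24 and 72 h. It leaves out variation between cultures and any error that both probe sets share on an array. The cultures followed their labels, since 8 of 8 osteoclast markers were higher at 72 h than at 0 h, and 7 of 9 macrophage markers were lower. Markers of other cells were present too. Neutrophil markers, summed over 11 genes, had a signal of 19322 at 0 h, 12854 at 24 h and 1397 at 72 h, and stromal and osteoblast markers, summed over 10 genes, 2992, 3196 and 9574. In the T or NK cell list 3 of 10 genes were detected at 0 h and 1 at 72 h, with Cd3d, Cd3e and Cd3g under the floor on all arrays. In the B cell list 5 of 10 were detected at 0 h, 2 at 24 h and 3 at 72 h, with summed signals of 654, 570 and 359. Cd79a, Ms4a1 and Pax5 of that list were under the floor on all arrays.

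Of the 66 genes, 34 (51.5%) were above the floor on at least 1 array, against 70.6% of all genes. Detected members numbered 27 at 0 h (40.9%), 24 at 24 h (36.4%) and 23 at 72 h (34.8%). For all genes these shares were 64.5%, 63.8% and 63.9%. On all 3 arrays 17 members were above the floor (25.8%, against 57.8% of all genes). Another 11 were above it on only 1 array (16.7%, against 6.83%). On at least 1 array, detection was nearly even between roles, at 14 of 31 ligands and 16 of 29 receptor chains. On all 3 arrays it was not, since fewer ligands (only Il1b, Il1f10, Il16 and Il18) than receptor chains were above the floor. The 32 members under the floor throughout included 17 ligands, 13 receptor chains and 2 decoy receptors, and their highest signals ran from 1.16 to 29.3, so some lay just under the floor. Among them were the classical T cell products Il2, Il3, Il4, Il5, Il13, Il17a and Il21. They also held the inflammatory cytokines Il6 (14.5, 10.9 and 17.7 at 0, 24 and 72 h), Il1a (11.7, 1.30 and 9.06) and Il12b (8.49, 11.7 and 17.9). Il33 (10.3, 20.6 and 14.1) and the decoy receptor Il1r2 (24.6, 8.86 and 19.7) were under it as well.

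More members were called lower than higher in each comparison, though not under all alternatives, as given after the counts. At 24 h against 0 h, 7 of 32 measured members were lower and 3 higher, where 9.22% of all measured genes were lower and 13.2% higher. At 72 h against 0 h, 9 of 31 were lower and 4 higher, against 12.8% and 12.5% of all genes. Between 24 and 72 h, 4 of 28 were lower and 2 higher, with 10.0% and 6.92% of all genes called. The member shares for these directions were 21.9% and 9.38%, 29.0% and 12.9%, and 14.3% and 7.14%, so the share of rises lay near or under that of all genes. On the deposited scale, without centring, 6 of 32 members were higher (18.8%) and 5 lower (15.6%) at 24 h against 0 h, where 39.0% of all genes were higher and 3.71% lower. At 72 h against 0 h on that scale 6 of 32 were higher and 4 lower (12.5%), where 35.0% of all genes were higher and 5.33% lower. On both scales the members' share of lower calls was thus above that of all genes in these comparisons. Between 24 and 72 h with probe sets averaged, 4 of 27 members were higher (14.8%) and 1 lower (3.70%), against 7.05% and 8.89% of all genes. With the floor at the 60th percentile 1 of 10 was higher (10.0%) and 0 lower, against 5.92% and 9.16% of all genes. The median log2 difference of measured members was -0.45 at 24 h against 0 h, beside 0.12 for all genes, and -0.55 at 72 h against 0 h, beside -0.01. On the deposited scale both member medians were above 0, at 0.21 and 0.12, where those of all genes were 0.78 and 0.68. The floor itself fixed the sign of members above it on only 1 array of a comparison. At 24 h against 0 h, 8 of 32 measured members (25.0%) were above it at 0 h only and could only come out lower, and 5 at 24 h only, against 6.34% and 5.32% of all genes. At 72 h against 0 h these were 8 and 4 of 31, so the counts and medians describe the detected members and carry no weight as a shift of the family. Over the same course the median macrophage marker was 4.22-fold lower at 24 h and 7.04-fold lower at 72 h than at 0 h, with Csf1r within 2-fold and Cd68 2.34-fold higher at 72 h, and the neutrophil markers declined; the part of either in the falls of members was not tested. In all, 18 of 34 measured members (52.9%) were called in at least 1 comparison, against 37.8% of all measured genes. A further 16 detected members were called in none.

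**Figure D1:**
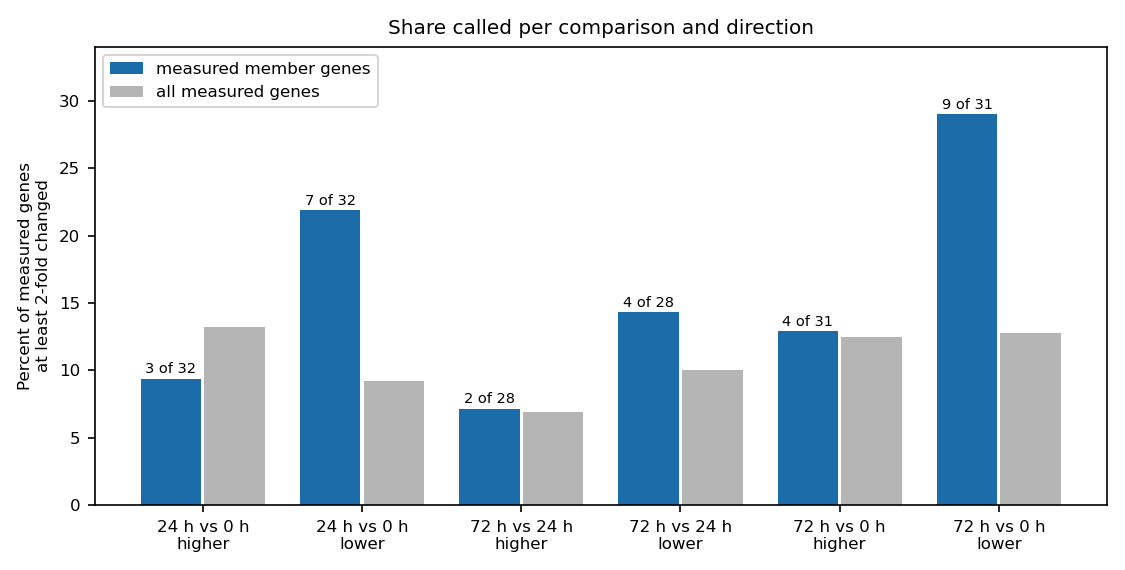
Bars give the percent of measured member genes (blue, with counts above) and of all measured genes (grey) that were at least 2-fold higher or lower in each of the 3 comparisons. The widest gap is for members lower at 72 h than at 0 h, 29.0% against 12.8%.

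Among the ligands, Il11 rose and Il1b and Il16 fell by the widest margins. Il11 encodes a gp130 cytokine that supports osteoclast formation and megakaryocyte growth. Its signal was 29.3 at 0 h, just under the floor, 182.9 at 24 h and 254.1 at 72 h. It was thus at least 6.19-fold higher by 24 h and at least 8.60-fold by 72 h, while the step from 24 to 72 h was a factor of 1.39. A floor at the 60th percentile ended the 24 h call. Stromal cells are a known source of Il11. The summed stromal marker signal was 2992 at 0 h and 3196 at 24 h, with 0 of 9 measured markers called higher at 24 h, and it reached 9574 at 72 h; the part of these cells in the Il11 signal was not tested.

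The Il11 gene has 2 start windows in RefSeq (GRCm38.p6), each of 250 bases before to 50 bases after a start. The motifs AP-1 (TGANTCA), NF-kB (GGGNNTTTC, all but the last base of its site), NFAT core (GGAAA), TATA box (TATAAA) and CRE (TGACGTCA) were searched on both strands. AP-1 and NFAT factors act downstream of RANKL, so the window that held such letters is shown, with matches in capitals. The reverse of an NFAT core reads TTTCC, and an NFAT core can overlap an NF-kB match. A match is a description of the letters and no evidence of binding.
Il11, chr7:4778092-4778391, minus strand: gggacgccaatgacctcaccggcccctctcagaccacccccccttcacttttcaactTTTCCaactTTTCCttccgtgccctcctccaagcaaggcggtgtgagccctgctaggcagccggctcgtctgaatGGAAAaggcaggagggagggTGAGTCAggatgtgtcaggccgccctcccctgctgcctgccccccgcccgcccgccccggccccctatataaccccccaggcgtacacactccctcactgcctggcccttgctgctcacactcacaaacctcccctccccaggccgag
It held 1 AP-1 match at -98 from the start and 3 NFAT cores at -193, -184 and -118, whereas the other Il11 window held none of the motifs. AP-1 letters were in 7.81% of 32851 windows of all genes, NF-kB in 4.36%, the NFAT core in 61.3%, the TATA box in 13.6% and CRE in 1.79%. Of 64 windows of 51 member genes, AP-1 letters were in 12, NF-kB in 10, the NFAT core in 50, the TATA box in 11 and CRE in 0. Windows of a gene can overlap, so these are not independent counts.

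Il1b encodes IL-1 beta, the inflammatory cytokine that macrophages release after its precursor is cut by caspase-1. Its signal went from 215.1 at 0 h to 50.5 at 24 h and 32.0 at 72 h, where it stood just above the floor. It was 4.26-fold lower at 24 h and 6.73-fold lower at 72 h than at 0 h. Il18, the other IL-1 family cytokine cut by caspase-1, declined more slowly, with signals of 212.6, 126.6 and 67.5. It was 1.68-fold below its 0 h level at 24 h, within 2-fold, and 3.15-fold lower at 72 h, a call that was not reached on the deposited scale. Neutrophils also carry Il1b. The summed neutrophil marker signal was 1.50-fold lower at 24 h and 13.8-fold lower at 72 h than at 0 h. Single markers differed from the sum at 24 h, when 4 of 10 measured markers were called lower and 0 higher. Mmp8 was 10.1-fold and Csf3r 6.33-fold lower at 24 h, whereas S100a8 and S100a9 were within 2-fold. The part of these cells in the fall of Il1b was not tested. The Il1b promoter is shown beside that of Il11 because the 2 ligands moved in opposite directions.
Il1b, chr2:129371090-129371389, minus strand: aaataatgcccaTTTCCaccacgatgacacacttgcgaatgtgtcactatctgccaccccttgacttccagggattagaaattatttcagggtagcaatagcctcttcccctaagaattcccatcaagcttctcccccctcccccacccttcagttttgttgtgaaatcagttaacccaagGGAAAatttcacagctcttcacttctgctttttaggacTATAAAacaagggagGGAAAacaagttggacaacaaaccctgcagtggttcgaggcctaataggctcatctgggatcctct
This window held a TATA box at -31 and 3 NFAT cores at -238, -69 and -16, with no AP-1 or NF-kB letters in these 300 bases.

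Il16 followed Il1b in its direction, and the remaining ligands gave smaller differences. Il16, a chemoattractant cytokine released from a larger precursor, had signals of 207.6, 58.6 and 40.7. It was 3.54-fold lower at 24 h and 5.10-fold lower at 72 h. Its second probe set also fell (57.9, 14.7 and 11.9) but was under the floor at 24 and 72 h. The floor held the difference of that probe set to at least 1.96-fold, short of a call. Il15, which sustains natural killer and memory T cells, gave 86.1, 64.7 and 29.0. It was at least 2.91-fold lower at 72 h than at 0 h and at least 2.19-fold lower than at 24 h; the first of these calls was not reached on the deposited scale. Il1f10, a member of the IL-1 family also called IL-38, gave 38.1, 80.6 and 68.4 and was 2.11-fold higher at 24 h, a call lost with trimmed mean scaling. Il34, the second ligand of the M-CSF receptor, was under the floor at 0 h (8.77) and above it only at 24 h (37.8), with 27.4 at 72 h, and it was not called, though with the floor at the 20th percentile or none it was called higher at 24 h. Il10, which restrains macrophage activation, was likewise above the floor only at 24 h (24.0, 41.8 and 25.7) and was not called.

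**Figure D2:**
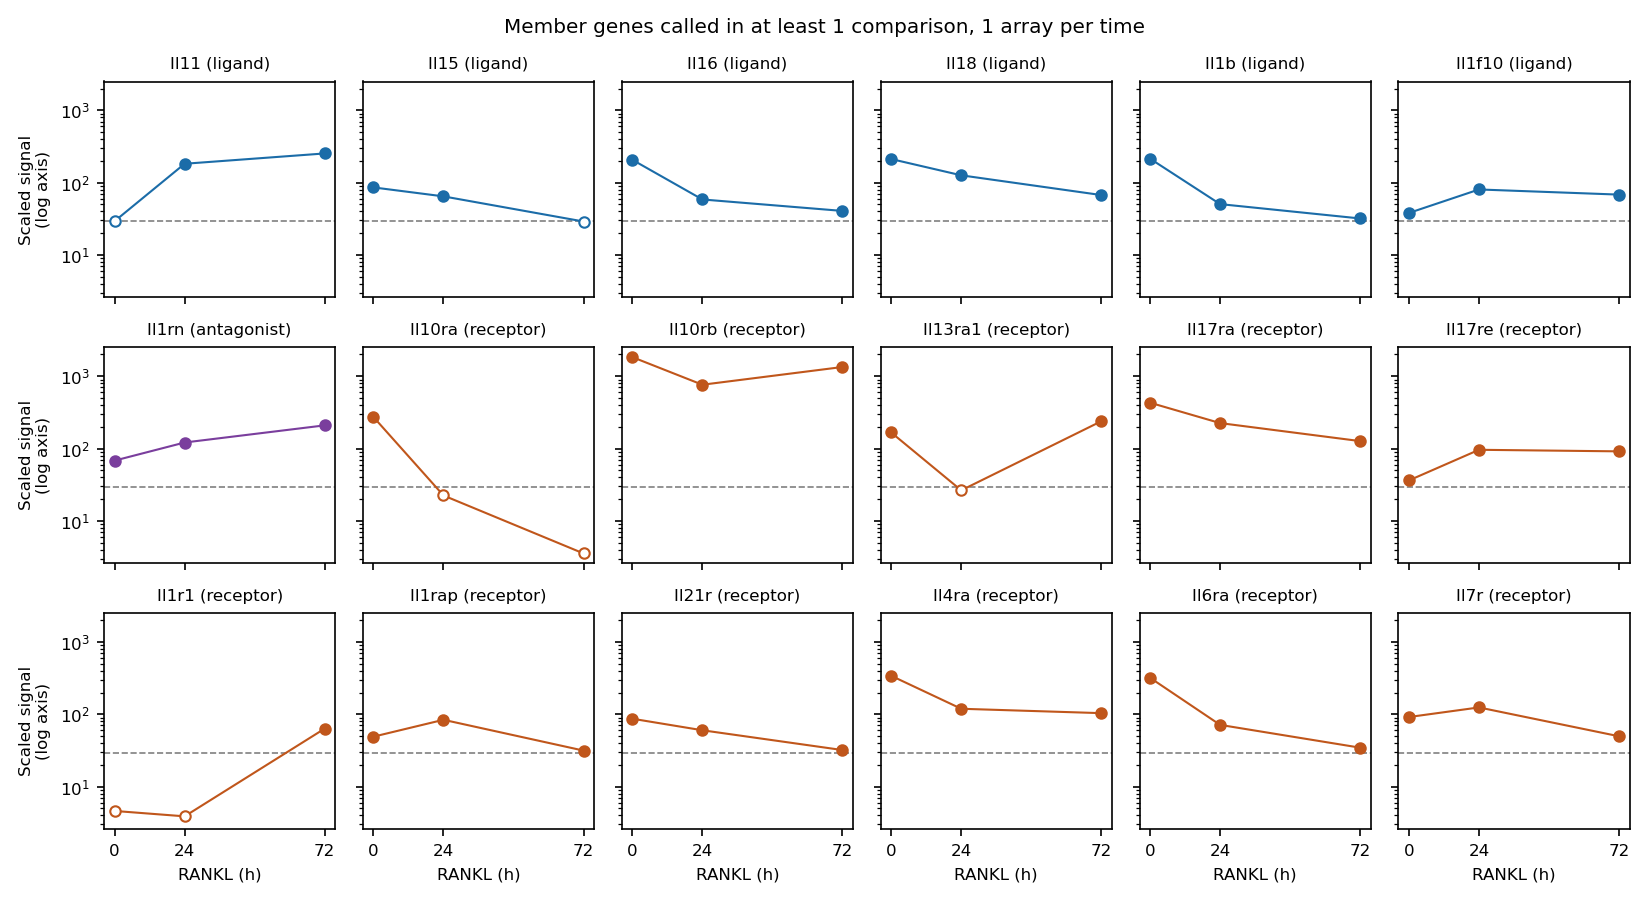
Each panel gives the scaled signal (log axis) of 1 of the 18 called member genes at 0, 24 and 72 h of RANKL, 1 array per time, with ligands in blue, the antagonist in purple and receptor chains in orange. The dashed line is the floor of 29.6 and open points lie under it; Il11 and Il1r1 start under the floor, Il13ra1 dips under it at 24 h, and Il10ra and Il15 end under it.

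The antagonist of IL-1 went the opposite way to IL-1 beta. Il1rn encodes the IL-1 receptor antagonist, which occupies the IL-1 receptor without signalling. Its brightest probe set gave 68.0, 121.0 and 209.1, so that it was 3.08-fold higher at 72 h, with each single step within 2-fold. On the deposited scale the step from 0 to 24 h was called higher. With the probe sets of Il1rn averaged, the step from 24 to 72 h was not within 2-fold. The other 2 probe sets gave 44.3, 45.2 and 251.4, and 40.7, 21.3 and 114.4. They put the rise after 24 h and not before it, at 5.67-fold and 2.81-fold for 72 h against 0 h. All 3 probe sets thus rose at least 2-fold over the whole course, and they differed on the time of the rise. The Il1rn gene has 3 start windows, 2 of which overlap. Starts 1 and 3 are shown because they hold different motifs.
Il1rn start 1, chr2:24336610-24336909, plus strand: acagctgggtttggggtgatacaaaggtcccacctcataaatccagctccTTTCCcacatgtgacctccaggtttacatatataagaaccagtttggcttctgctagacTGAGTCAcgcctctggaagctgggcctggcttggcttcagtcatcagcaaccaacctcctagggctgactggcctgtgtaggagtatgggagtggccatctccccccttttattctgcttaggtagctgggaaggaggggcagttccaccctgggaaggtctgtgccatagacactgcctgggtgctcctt
Il1rn start 3, chr2:24345121-24345420, plus strand: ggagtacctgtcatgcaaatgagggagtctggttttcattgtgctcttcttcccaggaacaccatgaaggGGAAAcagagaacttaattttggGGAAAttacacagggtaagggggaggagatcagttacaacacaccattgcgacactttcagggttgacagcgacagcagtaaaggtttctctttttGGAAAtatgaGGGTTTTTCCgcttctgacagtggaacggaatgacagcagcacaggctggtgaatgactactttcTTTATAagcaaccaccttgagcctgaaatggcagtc
Start 1 held an AP-1 match at -141 and an NFAT core at -200. Start 3 held an NF-kB match at -51 with NFAT cores at -180, -157, -61 and -46, of which the last overlaps the NF-kB match, and a TATA box in reverse at 15 bases past the start. Which start each probe set reads was not tested. Il18bp, the soluble decoy of IL-18, had signals of 56.0, 2.35 and 9.40. It left the detected range, but the floor held its difference to at least 1.90-fold, short of a call, though trimmed mean scaling and the lower floors called it lower at both times.

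Il1r1 and Il1rap, the IL-1 receptor chains, were both called between 24 and 72 h, in opposite directions. Il1r1, the chain that signals for IL-1, was at 4.60 and 3.87 at 0 and 24 h and reached 63.4 at 72 h. It was at least 2.15-fold higher at 72 h than at either earlier time, on 1 probe set, and was not measured with the floor at the 60th percentile. Stromal cells also carry Il1r1, and their summed marker signal was 3196 at 24 h and 9574 at 72 h. That sum was carried by Col1a1, Col1a2, Col3a1 and Sparc. From 24 to 72 h, 5 of 9 measured stromal markers were called higher, these 4 and Pdgfrb (2.83-fold), and 0 lower. At 72 h against 0 h, 4 of 10 were higher and 1 lower, Dcn at 2.78-fold. Lum was above the floor at 0 h only. The part of stromal cells in the Il1r1 rise was not tested. Il1rap, its co-receptor, gave 49.0, 83.9 and 31.4 and was 2.67-fold lower at 72 h than at 24 h. That call was lost when its 3 probe sets were averaged, and on the deposited scale the gene was called higher at 24 h against 0 h. Il18r1 and Il18rap, the IL-18 receptor chains, were under the floor on all arrays. Thus Il1r1 and Il1rn were higher at 72 h than at 0 h, and Il1b and Il18 were lower.

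Of the gp130 receptors, the IL-6 specific chain fell and the shared chain did not pass the 2-fold rule by its brightest probe set. Il6ra, which binds IL-6, gave 320.2, 71.4 and 34.5. It was 4.49-fold lower at 24 h, a further 2.07-fold lower from 24 to 72 h, and 9.28-fold lower over the whole course. Its other probe set moved far less (67.9, 61.9 and 48.5, a factor of 1.40 over 72 h), so the size of the fall depends on the probe set. The call from 24 to 72 h was lost with trimmed mean scaling and with probe sets averaged. The Il6ra promoter held none of the 5 motifs and is not shown. Il6st, which encodes gp130, gave 166.5, 118.3 and 172.7, within 2-fold in all 3 comparisons. Its second probe set, at 32.6, 31.7 and 66.3, was 2.03-fold higher at 72 h than at 0 h. Among gp130 family receptors without an Il symbol, Osmr, the oncostatin M receptor, was 2.74-fold higher at 72 h (45.2, 25.2 and 123.7), and Lifr, the leukaemia inhibitory factor receptor, was at least 2.41-fold lower (71.2, 13.5 and 27.0). Ebi3, a subunit shared by IL-27 and IL-35, was 4.47-fold lower (299.4, 96.0 and 67.0).

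The receptors for the cytokines that restrain osteoclasts moved in separate ways. Il10ra, the IL-10 specific chain, was at 272.8 at 0 h and under the floor afterwards, at 22.4 and 3.53. It was at least 9.23-fold lower at both times. Its second probe set (41.1, 16.4 and 27.5) also dropped under the floor, but by at least 1.39-fold, and with all 3 probe sets averaged the gene was not measured. Il10rb, the chain shared with other IL-10 family receptors, gave 1840, 762.9 and 1343. It was 2.41-fold lower at 24 h, a call absent on the deposited scale, and 1.37-fold below its 0 h level at 72 h.

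Il4ra, the signalling chain for IL-4 and IL-13, gave 341.1, 119.3 and 103.7, and was 2.86-fold lower at 24 h and 3.29-fold lower at 72 h. On the deposited scale neither difference reached 2-fold, and with its probe sets averaged the 24 h difference did not. Its second probe set gave 196.0, 83.3 and 73.3, with falls of 2.35-fold and 2.67-fold. Il13ra1, its partner for IL-13, fell and came back. The brightest of its 5 probe sets gave 166.6, 26.4 and 238.7, which is at least 5.64-fold lower at 24 h and then at least 8.08-fold higher at 72 h; a floor at the 60th percentile ended the call at 24 h. Another 3 probe sets dipped and recovered in the same order (84.8, 35.0 and 107.7; 66.9, 35.0 and 128.2; 64.3, 40.6 and 106.3), and the last was under the floor throughout. The dips of these 3 were 2.42-fold, 1.91-fold and 1.58-fold, so the brightest probe set gave the largest one. On the deposited scale the gene was called higher at 72 h than at 0 h. Il13ra1 was the 1 member called lower and then higher, a sequence that 79 of 8745 measured genes (0.903%) showed.

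**Figure D3:**
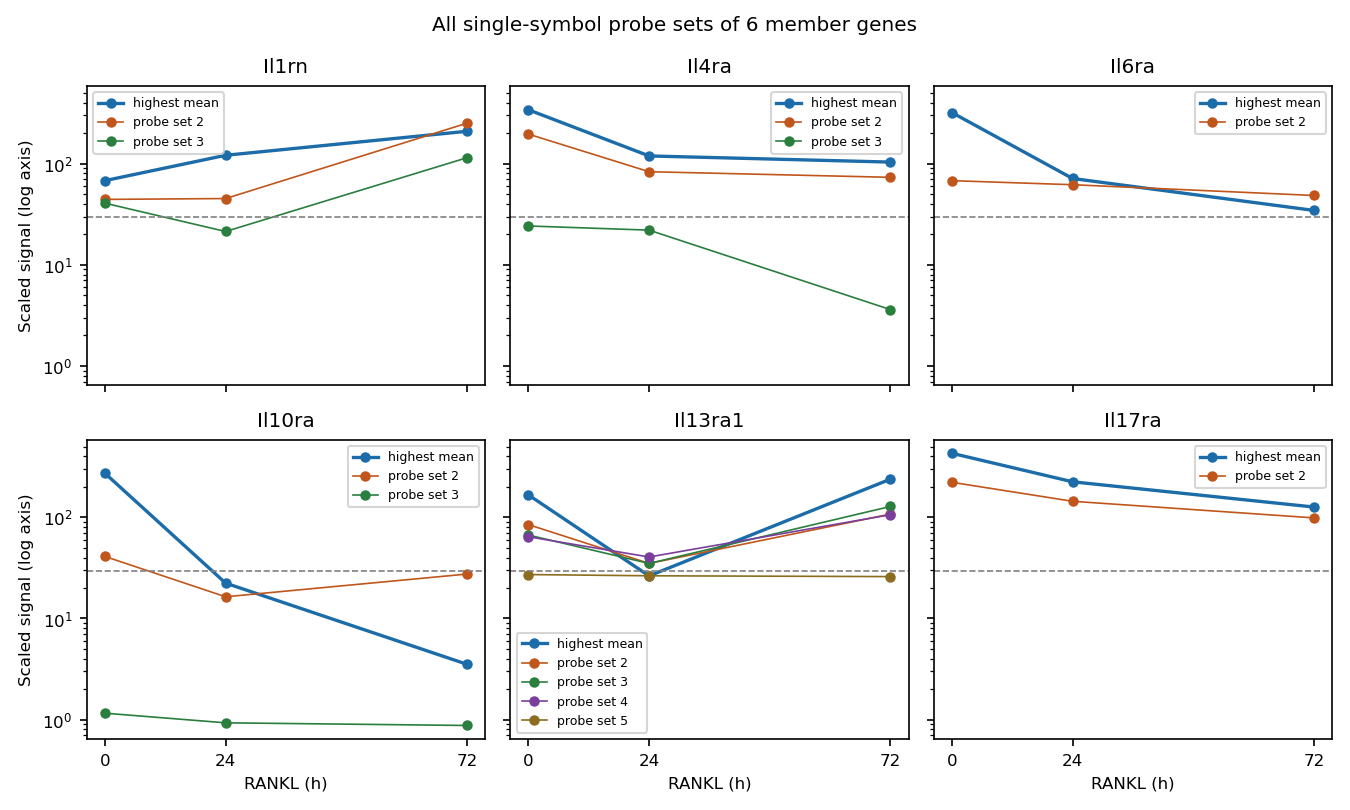
Scaled signals (log axis) at 0, 24 and 72 h for every single-symbol probe set of 6 member genes, with the probe set of the highest mean drawn thick and the floor of 29.6 dashed. Il13ra1 dips at 24 h in 4 of 5 probe sets, whereas the 2 probe sets of Il6ra differ in the size of the fall, at 9.28-fold and 1.40-fold.

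Receptors of the lymphoid growth cytokines were modest in signal. Il2rg, which encodes the common gamma chain, was not among the 66 genes, and Il2ra and Il2rb were under the floor on all arrays. Il7r, the IL-7 receptor chain, known in lymphocyte and some myeloid precursors, gave 91.7, 124.4 and 49.6. It was 2.51-fold lower at 72 h than at 24 h. That call was lost when its 2 probe sets were averaged or the floor was raised to the 60th percentile. On the deposited scale Il7r was called higher at 24 h against 0 h, and with trimmed mean scaling lower at 72 h against 0 h. The part of B cells in the Il7r signal was not tested. Il21r gave 86.8, 60.1 and 32.0 and was 2.71-fold lower at 72 h than at 0 h, a call not reached on the deposited scale. Il15ra, which presents IL-15, stayed between 40.7 and 47.4. Il3ra, the IL-3 specific chain, gave 53.8, 35.3 and 34.7 and was not called. Its signalling partners Csf2rb and Csf2rb2 were not called either (509.4, 572.5 and 427.7 for Csf2rb).

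In the IL-17 family 2 of 5 receptor chains were detected and 0 of 4 ligands. Il17ra, the chain common to IL-17 receptors, gave 430.1, 224.7 and 126.5. It was 1.91-fold below its 0 h level at 24 h, within 2-fold, and 3.40-fold lower at 72 h. With trimmed mean scaling or quantile normalization the 24 h difference was called lower, and on the deposited scale the 72 h difference was not called. Its second probe set gave 222.2, 144.2 and 98.8, a 2.25-fold fall over 72 h. Il17re, the IL-17C receptor chain, gave 36.2, 96.0 and 91.3 and was 2.65-fold higher at 24 h and 2.53-fold higher at 72 h. Its other probe set stayed under the floor, and neither call stood when both were averaged or at the 60th percentile floor. Il17a, Il17b, Il17d and Il25 were under the floor on all arrays, as were Il17rb, Il17rc and Il17rd.

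**Figure D4:**
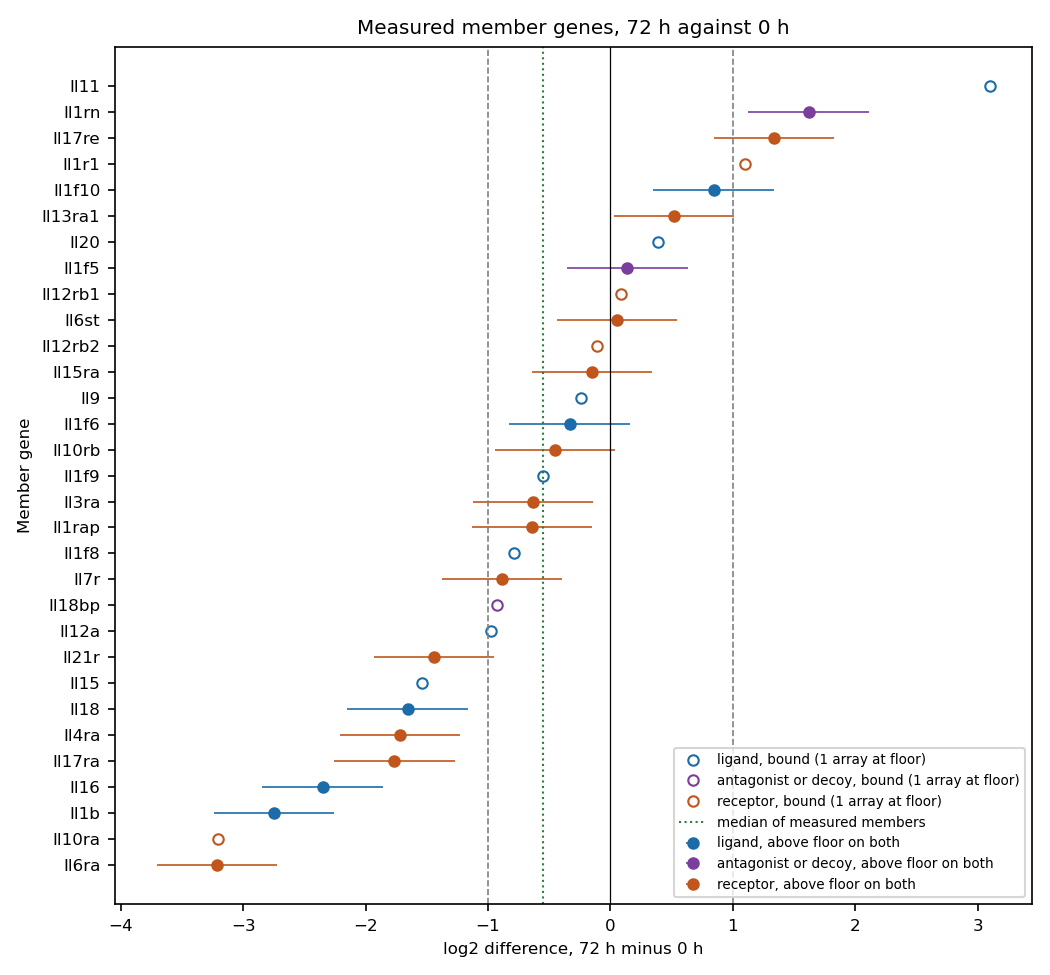
Log2 difference of 72 h minus 0 h for the 31 measured member genes, in order, with ligands in blue, antagonists or decoys in purple and receptor chains in orange; bars are 1 technical SD (0.49) on either side and open points are bounds because 1 array was at the floor. Dashed lines mark the 2-fold thresholds and the dotted line the member median of -0.55; 9 genes lie beyond the lower threshold and 4 beyond the upper.

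Agreement between probe sets could be checked for the few members with 2 of them above the floor on both arrays. Among such probe sets, the brightest and the next had the same sign in 6 of 6 genes at 24 h against 0 h. They had it in 6 of 7 at 72 h against 0 h and in 7 of 7 at 72 h against 24 h. In the comparisons with 24 h, the brightest probe set of Il13ra1 was left out because it was under the floor at 24 h. Il10ra and Il17re, without 2 such probe sets, were not covered. The exception was Il1f5, an IL-36 receptor antagonist, at 0.14 and -0.21 on the log2 scale. The median gap between the 2 probe sets was 0.40, 0.60 and 0.28 on the log2 scale, and the largest was that of Il6ra, 2.73 at 72 h against 0 h.

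Other genes of the interleukin pathways were followed in 5 lists, on cytokine maturation, intracellular signalling and receptor partners. At 72 h against 0 h, 12.8% of all measured genes were lower and 12.5% higher, and on the deposited scale 5.33% and 35.0%. The medians of these lists depend on the scaling: on the deposited scale that of IL-1 and IL-18 maturation was -0.21 with 2 genes higher and 1 lower at 72 h against 0 h, and those of the other 4 were above 0, from 0.05 to 0.74, where that of all genes was 0.68. In the list of IL-1 and IL-18 maturation, 4 of 10 measured genes were lower at 72 h than at 0 h and 0 higher (median log2 difference -0.93, beside -0.01 for all genes). Casp1, the protease that cuts both cytokines, gave 286.4, 205.2 and 92.0 and was 3.11-fold lower. Pycard, the inflammasome adaptor, was 2.94-fold lower (1134, 1312 and 386.2), and Naip5, a sensor of bacterial flagellin, at least 4.74-fold (140.0, 59.1 and 27.3). Nlrp3, the sensor best known for IL-1 release, was 1.94-fold below its 0 h level, within 2-fold.

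In IL-1 receptor and MyD88 signalling, 2 of 15 genes were higher and 2 lower (median -0.03), shares near those of all genes, and on the deposited scale 6 were higher, again near the share of all genes, and 0 lower. Traf6, the ubiquitin ligase shared by the IL-1 receptor and RANK, was 3.60-fold higher (37.2, 64.4 and 134.1) and Ecsit 2.39-fold. The adaptor Myd88 was 3.18-fold lower (698.0, 427.6 and 219.6) and the ubiquitin ligase Peli2 3.04-fold. In JAK-STAT signalling, which most other interleukin receptors use, 6 of 21 genes were lower and 1 higher (median -0.64), and on the deposited scale 4 of 20 were higher, under the share of all genes, and 1 lower. Socs3, the feedback inhibitor that acts on gp130, was 5.09-fold lower (446.1, 335.8 and 87.6), Jak3, the kinase of the common gamma chain, 3.07-fold, and Jak2 2.46-fold. The 1 that rose was Socs2, a feedback inhibitor of growth hormone signalling, 6.33-fold (40.6, 140.2 and 257.1).

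In IL-17 receptor signalling 3 of 7 genes were lower and 1 higher (median -0.72), beside 12.8% and 12.5% of all genes. Traf3ip2, the adaptor that binds IL-17 receptors, was 3.60-fold higher (40.7, 89.3 and 146.8), while the transcription factors Cebpd and Cebpb were 5.02-fold and 4.23-fold lower and Nfkbiz 3.91-fold. Of receptor partners without an Il symbol, 3 of 10 were lower and 1 higher (median -0.26), beside the same shares of all genes. The largest fall was that of Csf3r, the granulocyte colony-stimulating factor receptor, 15.6-fold, which is also 1 of the neutrophil markers, all 10 measured of which were lower at 72 h.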

How the data were processed

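Total RNA from 3 cultures was hybridised to 3 Affymetrix arrays as biotin-labelled cRNA made from 5 µg of RNA, per the labels. The deposited values are linear intensity signals, and MAS5 made them per the submitters' processing notes, whose version and target value are not given in the sources used here. Of 22690 probe sets, 64 were controls. Names came from the platform annotation of 2016; all 66 member genes matched RefSeq by identifier and 0 symbols were updated.

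In Python 3.11.15 with pandas 2.3.3 and numpy 2.4.6, log2 signals were centred on each array's median, floored at the 40th percentile and compared by a 2-fold rule. With 1 array per time there were no tests. The steps were run on simulated data in which only genes well above the floor were changed, so that run gives no support for calls of dim members. The technical error is the SD over 2727, 2785 and 2702 genes (24 h against 0 h, 72 h against 24 h, 72 h against 0 h) of the difference between 2 probe sets, divided by the square root of 2. Alternatives were 4 scalings, 3 floors and 2 probe set rules. Members named were those called in any comparison and a set list of members known in macrophages or osteoclasts; up to 3 genes per pathway list and direction were named by the largest called difference at 72 h, and others were chosen after their values were seen, as were the promoters shown. Members and lists were chosen with earlier results of these data known.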

Additional observations from a re-analysis of the deposited data

How the results depend on the processing

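No paired analysis was possible because each time had 1 array and the labels give no replicate numbers. Of the 62 values of the 7 member counts (detected, and higher or lower in 3 comparisons) under the alternatives, 40 stayed within 1.5 times the main count and 22 did not. On the deposited scale 6 of 32 members were higher at 24 h against 0 h, where 39.0% of all genes were. At 72 h against 0 h, 4 of 32 were lower on that scale, against 5.33% of all genes. With the floor at the 20th percentile 59 members were detected. At 24 h against 0 h, 8 of 57 measured were higher and 15 lower, against 13.5% and 11.9% of all genes. At 72 h against 24 h the counts were 4 and 8 of 53, against 9.03% and 11.7%. At 72 h against 0 h they were 7 and 16 of 56, against 13.5% and 15.0%. With no floor the counts were 10 and 20, 9 and 11, and 8 and 21 of 66, in the same order. The shares of all genes were then 16.3% and 15.2%, 12.0% and 15.3%, and 16.0% and 18.4%. With the floor at the 60th percentile 14 members were detected. At 24 h against 0 h, 0 of 14 were higher and 6 lower, against 13.2% and 8.35% of all genes. At 72 h against 24 h, 1 of 10 was higher and 0 lower, against 5.92% and 9.16%. At 72 h against 0 h, 2 of 12 were higher and 7 lower, against 11.9% and 11.3%. With probe sets averaged 4 of 27 were higher and 1 lower at 72 h against 24 h, against 7.05% and 8.89% of all genes. Of 29 calls of named members, 9 were made under all 9 alternatives: those of Il1b, Il6ra and Il16 at 24 h and 72 h against 0 h, Il11 and Il1rn at 72 h against 0 h and Il13ra1 at 72 h against 24 h. No called difference changed sign under any of the 9 alternatives that gave it a value. The floor, more than the scaling, set how many members counted as detected: 33 to 35 under the other settings. Dim signals near the floor limit what can be said of Il1f10, Il17re, Il1r1 and Il1rap.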
